A study of Mus musculus with 21 samples.

Results

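The TGF-beta and BMP signalling genes of the deposited expression table were compared between mouse epidermal keratinocytes that expressed human p16 and control keratinocytes. The members were the 55 genes on a list of ligands, latent TGF-beta binding proteins, receptors, Smads, co-repressors, antagonists and response genes, found by gene name among 22050 entries. All 55 were found, under 56 entries, because Ltbp4 has a second entry that was at 0 in every sample. Of the 55 genes, 50 reached the mean normalized value of 1 needed for testing, out of 12782 genes tested in all, and Bmp5, Bmp6, Gdf11, Gdf15 and Chrd did not.

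The p16 group was 4 samples of the genotype K5-rtTA/tet-GFP/tet-p16, and the 4 control samples were K5-rtTA/tet-GFP, without the p16 transgene. Mice of both groups carried the rtTA activator under the keratin 5 promoter, which is active in the basal epidermis and the outer hair follicle, on a mixed FVB, C57Bl and 129sv background, and both received doxycycline from 3 weeks of age for 6 months. Each sample was a pool of about 80000 GFP+ dorsal skin cells from 3 mice, sorted after cells bearing CD140a, CD45 or CD31 had been gated out, so the GFP+ cells can hold several keratinocyte types of the epidermis and the follicle. By the study's methods the 6-month inductions used male mice. Reads assigned to genes ranged from 1760953 to 3414362 in the controls and from 2884544 to 3202975 in the p16 samples. Values below are normalized values, the reads of a gene divided by the size factor of its sample.

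The human CDKN2A transgene had 13, 18 and 9 reads in p16 replicates 2 to 4 and 1 to 3 reads in the controls. The library labelled p16 replicate 1 had 2 reads, within the control range, so this low transcript did not bear out its label. Its Id2 value, 72.0, lay with the other p16 samples, where the lowest control was at 240.0. Its summed hair follicle bulge markers, described below, were at 9111.0, where the lowest control was at 11832.2. Without that library each of the 7 members that passed the test below still passed it. The EGFP transcript was present in all 8 samples, at 3161.8 or more.

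TGF-beta family ligands are secreted proteins that bind paired type I and type II receptor kinases. TGF-beta and activin receptors phosphorylate Smad2 and Smad3, BMP receptors phosphorylate Smad1, Smad5 and Smad9, and both sets of Smads join Smad4 and enter the nucleus. In skin, TGF-beta restrains the division of keratinocytes, and BMP signals hold hair follicle stem cells at rest and switch on the Id genes, whose products block basic helix-loop-helix factors. Secreted antagonists such as noggin, gremlin and follistatin keep ligands from their receptors.

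After 6 months of p16 expression, transcripts of the ligands Tgfb1 and Tgfb2 were higher, while those of the BMP antagonist Grem1, the latent TGF-beta binding protein Ltbp2, the follistatin-like gene Fstl1 and the BMP response genes Id1 and Id2 were lower. These were the 7 members past the threshold of limma with Benjamini-Hochberg adjustment over all genes tested (adjusted p under 0.05). Of the 50 tested members 2 were called higher, against 1.24% of all genes tested, and 5 lower, against 2.61%. The median log2 difference of the tested members was 0.026, beside -0.003 over all genes tested, with 26 members above 0 and 24 below. The p16 and control values did not overlap for 8 members, the 7 called and the co-repressor Ski, and for 9.83% of all genes tested. Of these members 3 lay higher in p16 cells and 5 lower, beside 4.19% and 5.63% of all genes. At an unadjusted p under 0.05, 7 members were higher and 11 lower, beside 7.02% and 8.93% of all genes.

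The counts varied little with the tool and more with the samples. With edgeR on recovered reads 2 members were higher and 4 lower (1.5% and 2.79% of genes tested), Fstl1 having too few reads for its filter, and with DESeq2 2 were higher and 5 lower (1.52% and 2.85%). Without p16 replicate 1 limma called 2 higher and 5 lower (0.539% and 1.5%). Without replicate 3 of both groups it called 0 higher and 5 lower (0.517% and 1.23%), since Tgfb1 and Tgfb2 no longer passed.

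**Figure D1:**
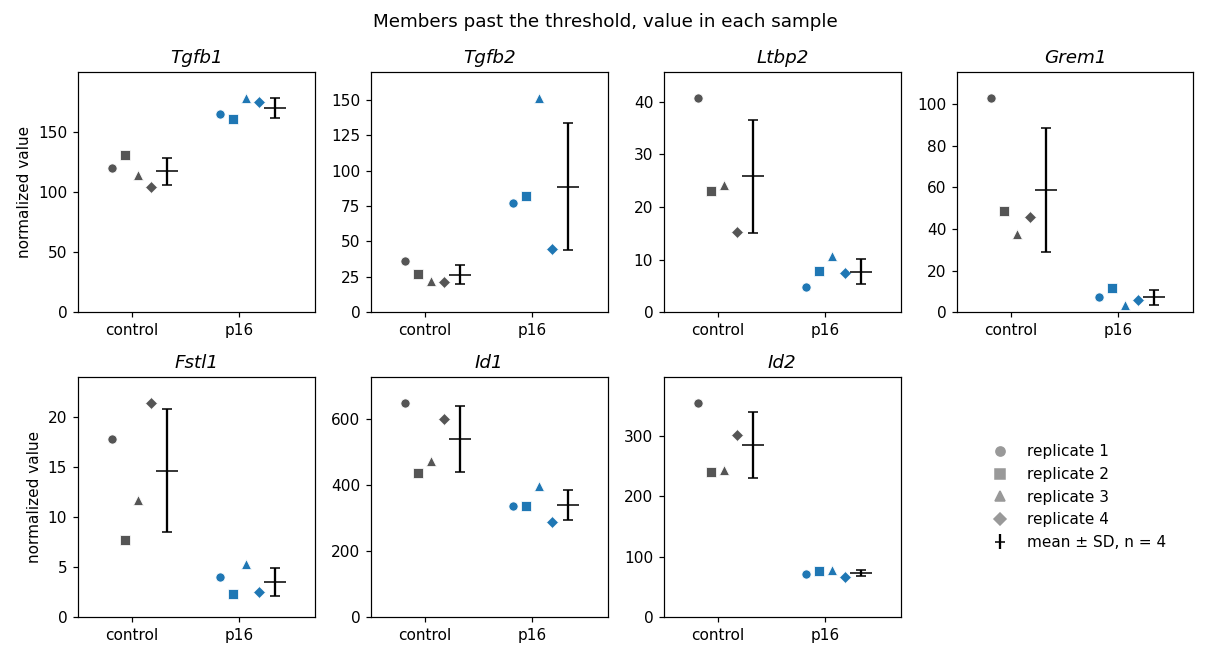
Normalized value of each of the 7 members past the threshold in the 4 control and 4 p16 samples, with 1 symbol per replicate and the mean ± SD beside them. The vertical axes start at 0 and differ between panels. Tgfb1 and Tgfb2 lay higher in every p16 sample and the other 5 genes lower, and the p16 values of Id2 kept within 67.4 to 78.0.

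Tgfb2 encodes a TGF-beta ligand. Over replicates 1 to 4, in that order here and below, the controls held 36.3, 27.0, 21.7 and 21.4 and the p16 samples 76.8, 82.0, 151.6 and 44.4. All p16 samples were above all controls, and p16 replicate 3 was the highest and p16 replicate 4 the lowest of its group. The mean was 26.6 ± 6.96 in controls and 88.7 ± 45.1 in p16 cells (SD, n = 4 each), a 3.34-fold difference. On the log2(normalized value + 1) scale the difference p16 minus control, called log2 difference here, was 1.60 ± 0.30 (SE, limma adjusted p = 0.00715). It passed whichever single sample was omitted. The labels describe the library protocol of replicate 3 in other words than for the rest, and omitting that replicate from both groups gave a limma adjusted p of 0.0503.

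Tgfb1, which encodes the ligand that names the family, held 119.4, 130.9, 113.6 and 103.9 in the controls and 164.7, 160.1, 178.2 and 174.3 in the p16 samples. The groups stood apart with little spread in either. The means of 117 ± 11.3 and 169 ± 8.37 (SD, n = 4 each) differed 1.45-fold, a log2 difference of 0.53 ± 0.11 (SE, limma adjusted p = 0.0156). The limma adjusted p was 0.0503 without p16 replicate 3 and 0.113 without replicate 3 of both groups, so this call was lost in both cases, with fewer samples and log2 differences of 0.51 and 0.50.

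The third TGF-beta ligand, Tgfb3, had overlapping groups, from 39.3 to 81.0 in controls and from 32.1 to 88.2 in p16 cells, and its log2 difference of 0.11 had a 95% interval of -0.49 to 0.71. Inhba, the activin A subunit, was 4.5, 2.6, 3.3 and 4.6 in controls and 11.2, 15.6, 23.1 and 4.1 in p16 cells. Thus p16 replicates 1 to 3 were above every control, and p16 replicate 4 lay within the control range. The log2 difference of Inhba was 1.43 ± 0.43 (SE, limma adjusted p = 0.0941), and the limma adjusted p was 0.00832 without p16 replicate 4 and 0.259 without p16 replicate 3. With edgeR without a filter on low counts Inhba passed (adjusted p = 0.0362). Inhbb, the activin B subunit, ranged from 328.5 to 426.3 in controls and from 278.7 to 476.1 in p16 cells, with a 95% interval of the log2 difference of -0.37 to 0.25.

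None of the BMP and GDF ligands passed the test. Bmp4 and Bmp7, both expressed in skin, had 95% intervals of the log2 difference of -0.32 to 0.37 and -0.19 to 0.31. The mean of Bmp2, a ligand of the resting hair follicle niche, was 79.4 ± 21.2 in controls and 56.5 ± 16.3 in p16 cells (SD, n = 4 each), a log2 difference of -0.48 (limma adjusted p = 0.329). Bmp3, an atypical BMP that acts as an antagonist, was at 57.6 ± 5.80 and 85.3 ± 26.6 (SD, n = 4 each), a log2 difference of 0.52 (limma adjusted p = 0.186). Gdf10 had at most 3 reads in each p16 sample, the limit of detection, and among the controls only replicate 1 exceeded that limit, with 7 reads. The 95% interval of its log2 difference was -2.40 to -0.11 (limma adjusted p = 0.257). Bmp5, Bmp6 and Gdf11 had at most 3 reads in any sample, and Gdf15 had 0 reads in all 8.

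**Figure D2:**
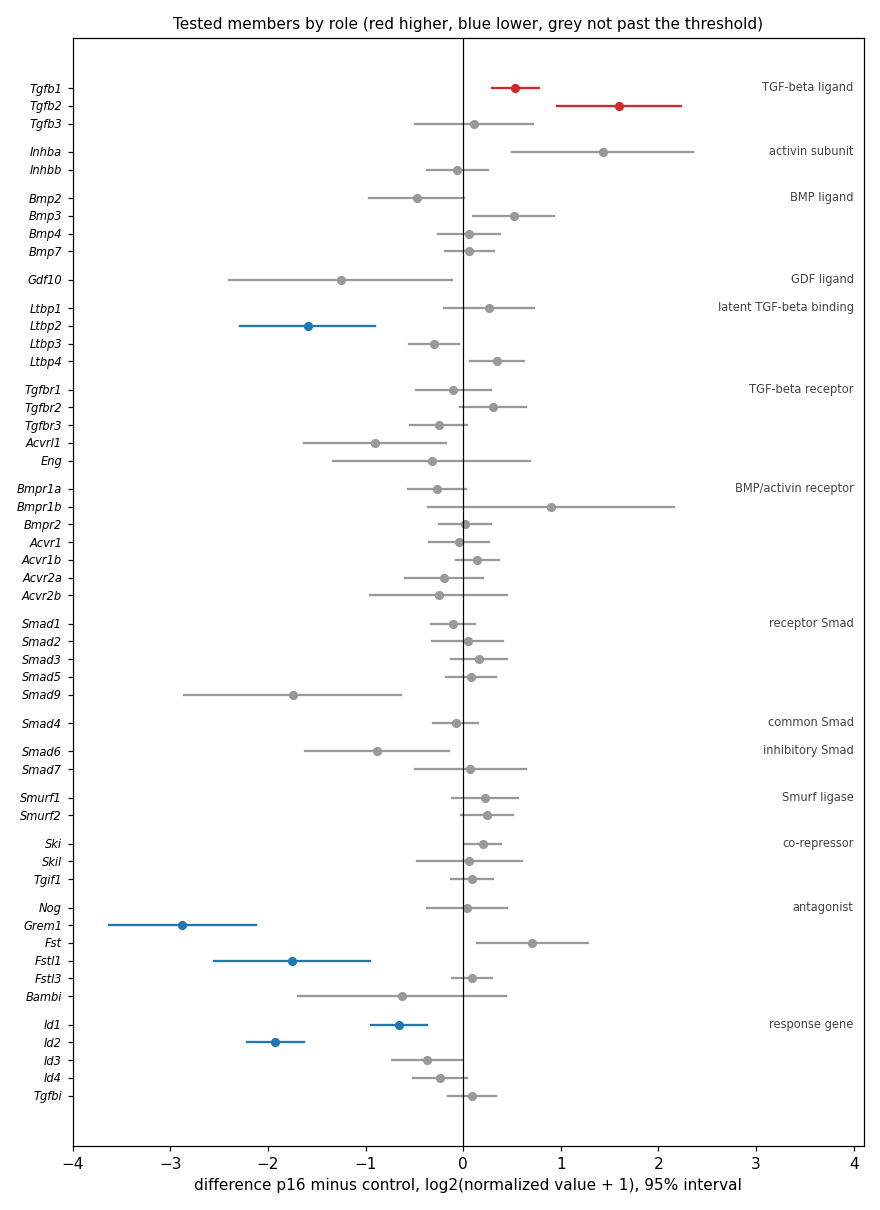
Difference p16 minus control on the log2(normalized value + 1) scale for the 50 tested members, ordered by role, as points with 95% intervals from limma (n = 4 each). Red marks the 2 members called higher and blue the 5 called lower, and none of the receptors or Smads is coloured.

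Latent TGF-beta binding proteins tether the inactive ligand in the matrix, except Ltbp2, which is a matrix protein of the same family that does not bind latent TGF-beta. Ltbp2 fell, from 40.8, 23.1, 24.2 and 15.3 in controls to 4.8, 7.8, 10.6 and 7.4 in p16 cells. Even the lowest control exceeded the highest p16 sample. The fold was 3.38, a log2 difference of -1.60 ± 0.32 (SE, limma adjusted p = 0.0119, or 0.0547 without control replicate 1). Ltbp1 and Ltbp4 had log2 differences of 0.26 and 0.35 and Ltbp3 one of -0.30, and these 3 did not pass (limma adjusted p = 0.631, 0.185 and 0.216).

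The largest fall among the members was that of Grem1, which encodes gremlin, a secreted antagonist of BMP2 and BMP4. Its values were 103.1, 48.8, 37.6 and 45.8 in controls and 7.2, 11.7, 3.5 and 5.8 in p16 cells. Control replicate 1 was far above the other controls, and the lowest control was still above every p16 sample. The means were 58.8 ± 29.9 and 7.05 ± 3.46 (SD, n = 4 each), an 8.34-fold difference, a log2 difference of -2.88 ± 0.35 (SE, limma adjusted p = 0.000337). Over the 16 other settings that test it with adjusted p-values, the adjusted p of Grem1 ran from 1.29e-10 with DESeq2 to 0.00231 with limma without replicate 3 of both groups.

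Fstl1, a secreted glycoprotein related to follistatin, was 17.8, 7.7, 11.7 and 21.4 in controls and 4.0, 2.3, 5.3 and 2.5 in p16 cells. The groups did not overlap, but the p16 values were at or near the limit of detection, which lay between 2.34 and 2.66 in these samples. The fold was 4.16, a log2 difference of -1.75 ± 0.37 (SE, limma adjusted p = 0.0172). The call was lost without control replicate 1 (limma adjusted p = 0.0718) or control replicate 4 (limma adjusted p = 0.0553).

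Of the other antagonists, Nog (noggin), which inhibits BMPs in the follicle, was at 62.8 ± 10.8 in controls and 64.9 ± 14.4 in p16 cells (SD, n = 4 each), with a 95% interval of the log2 difference of -0.38 to 0.45. Fst (follistatin), which binds activins, ranged from 178.8 to 401.3 in controls and from 255.7 to 715.2 in p16 cells. Its log2 difference was 0.71 ± 0.27 (SE, limma adjusted p = 0.190, or 0.0226 without p16 replicate 4). Fstl3, another activin binder, had a 95% interval of -0.11 to 0.30. Bambi, a pseudoreceptor, did not exceed the detection limit in p16 cells, and among the controls only replicate 1 did, with 7 reads. Its groups overlapped, with a 95% interval of the log2 difference of -1.70 to 0.44 (limma adjusted p = 0.611). Chrd (chordin) had at most 3 reads in any sample.

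The response genes among the members are the Id genes, which BMP signals induce, and Tgfbi, a matrix protein gene that TGF-beta induces. Id2 was 354.6, 240.0, 243.9 and 301.0 in controls and 72.0, 76.5, 78.0 and 67.4 in p16 cells. No p16 sample came near the control range. The means of 285 ± 54.2 and 73.5 ± 4.79 (SD, n = 4 each) gave a 3.88-fold fall and a log2 difference of -1.92 ± 0.14 (SE, limma adjusted p = 3.73e-06). Over the 16 other settings with adjusted p-values its highest adjusted p was 0.000118, with limma without replicate 3 of both groups.

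Id1 was 648.4, 437.6, 472.7 and 598.9 in controls and 337.4, 336.5, 397.2 and 287.8 in p16 cells. The groups were close, since the lowest control was at 437.6 and the highest p16 sample at 397.2, yet they did not overlap. The fall was 1.59-fold, a log2 difference of -0.66 ± 0.14 (SE, limma adjusted p = 0.0135, or 0.0547 without control replicate 1). Id3 and Id4 had overlapping groups and log2 differences of -0.37 and -0.24 (limma adjusted p = 0.295 and 0.398). Tgfbi, by contrast, was at 1678 ± 189 in controls and 1792 ± 283 in p16 cells (SD, n = 4 each), with a 95% interval of the log2 difference of -0.16 to 0.34.

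Between ligand and response gene the relay genes gave no call. The 12 receptor genes were all tested and 0 passed with limma, where 3.86% of all genes did. At an unadjusted p under 0.05, 1 was lower and 0 higher, beside 8.93% and 7.02% of all genes. That gene was Acvrl1 (ALK1), at 12.3 ± 3.25 in controls and 6.30 ± 2.67 in p16 cells (SD, n = 4 each), a log2 difference of -0.91 (limma adjusted p = 0.190). It also did not pass with edgeR or DESeq2, and neither did any of the other receptors. A list of 12 genes is too small to give a result about receptors as a group. The TGF-beta receptors Tgfbr1 and Tgfbr2 had 95% intervals of -0.49 to 0.29 and -0.04 to 0.64, and the accessory receptor Tgfbr3 one of -0.55 to 0.04. For the BMP receptors Bmpr1a and Bmpr2 they were -0.56 to 0.03 and -0.25 to 0.29, and for the activin and BMP receptors Acvr1, Acvr1b and Acvr2a -0.35 to 0.26, -0.07 to 0.36 and -0.59 to 0.20. Bmpr1b, Acvr2b and Eng were low, with no mean above 14.1, and their intervals were wider, at -0.36 to 2.15, -0.96 to 0.45 and -1.33 to 0.69.

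The 8 Smad genes likewise gave 0 calls with limma, where 3.86% of all genes were called, and 2 had an unadjusted p under 0.05, both lower, beside 8.93% of all genes. So few genes give no result about Smads as a group. These were Smad9, a BMP receptor Smad, and Smad6, an inhibitory Smad of the BMP branch that BMP signals induce. Smad9 was 6.7, 9.0, 7.5 and 1.5 in controls and 0.0, 1.6, 0.9 and 1.6 in p16 cells. The p16 samples were at the limit of detection, and control replicate 4 was as low as they were. It was at least 2.50-fold lower (limma adjusted p = 0.0862, or 0.0236 without control replicate 4, and 0.0334 with edgeR without a filter on low counts). Smad6 was 19.8 ± 3.96 in controls and 11.4 ± 6.79 in p16 cells (SD, n = 4 each), a log2 difference of -0.89 (limma adjusted p = 0.209).

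The main BMP receptor Smads Smad1 and Smad5 had 95% intervals of -0.33 to 0.12 and -0.18 to 0.33, the TGF-beta receptor Smads Smad2 and Smad3 of -0.32 to 0.40 and -0.12 to 0.45, and the common Smad4 of -0.31 to 0.15. Smad7, the inhibitory Smad that TGF-beta induces, had one of -0.50 to 0.64. These are transcript levels, and Smads are switched by phosphorylation, which was not measured.

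Of the genes that restrain Smads, the co-repressor Ski was 432.5, 413.2, 406.7 and 455.3 in controls and 494.1, 473.1, 518.7 and 475.2 in p16 cells. All p16 samples were above all controls, by a 1.15-fold difference in means that did not pass the test across genes (log2 difference 0.20 ± 0.09, SE, limma adjusted p = 0.269). For any gene whose groups do not overlap, as for these 8 members, the exact two-sided permutation test takes p = 0.0286, the smallest that the 70 splits of 4 against 4 samples allow, so it adds nothing to the count above. The related Skil had a 95% interval of -0.48 to 0.61 and the co-repressor Tgif1 one of -0.13 to 0.31. The ubiquitin ligases Smurf1 and Smurf2, which mark Smads and receptors for decay, had log2 differences of 0.22 and 0.25 (limma adjusted p = 0.543 and 0.366).

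**Figure D3:**
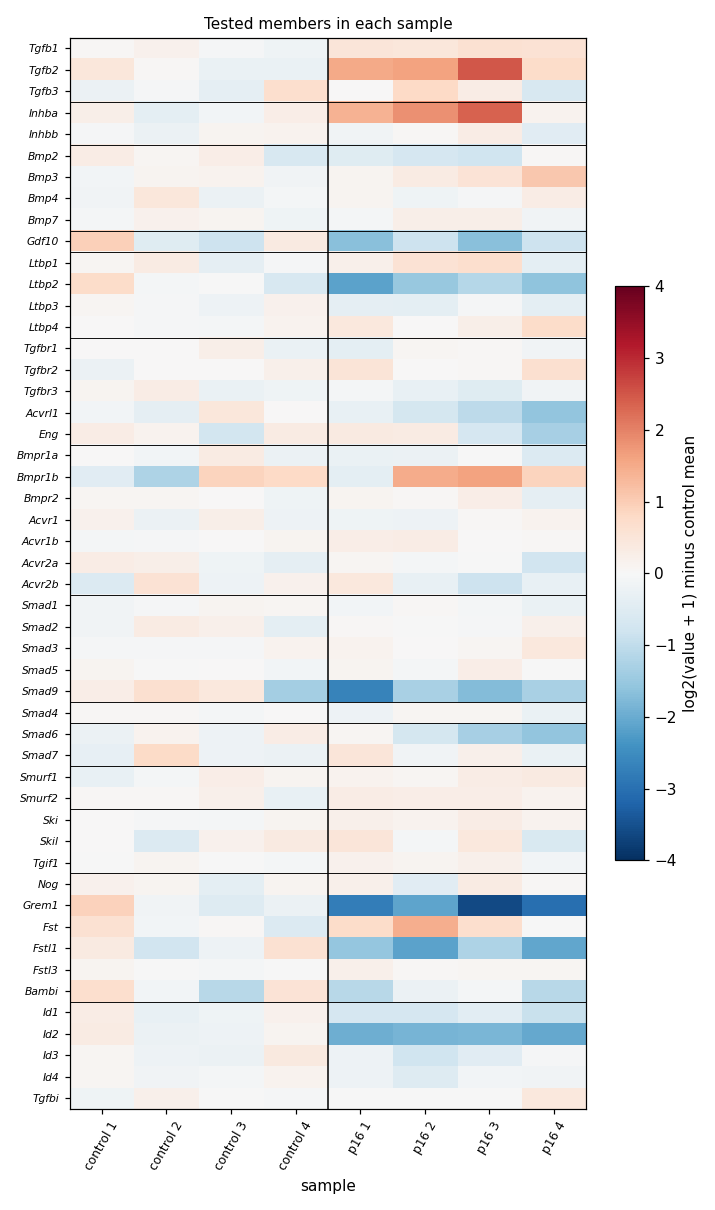
Value of each tested member in each of the 8 samples, as log2(value + 1) minus the mean of that quantity over the 4 controls, with lines between roles. Grem1 and Id2 are blue in all 4 p16 samples, and Tgfb2 and Inhba are darkest in p16 replicate 3 and palest in p16 replicate 4.

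The promoters of tested members were examined for letters that Smads are known to bind. RefSeq promoter windows (GRCm38.p6, 250 bases before the gene's start) were found for 36 of the 50 tested members, including 6 of the 7 called. Shown here are Tgfb2, the larger of the ligand rises, and Grem1 and Id2, the falls that passed in every setting, each read 5′ to 3′ towards the gene, with capitals on the run CAGAC (or GTCTG on the other strand), a core of Smad3 and Smad4 sites, and on the run GGCGCC, which BMP-activated Smads bind. The windows lie at chr1:186705990-186706239 (minus strand), chr2:113758649-113758898 (minus strand) and chr12:25096093-25096342 (minus strand).
Tgfb2: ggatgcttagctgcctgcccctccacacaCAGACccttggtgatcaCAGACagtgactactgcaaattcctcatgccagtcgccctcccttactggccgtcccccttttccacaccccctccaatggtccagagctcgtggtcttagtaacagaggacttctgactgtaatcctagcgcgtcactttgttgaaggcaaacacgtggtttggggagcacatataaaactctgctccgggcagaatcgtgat
Grem1: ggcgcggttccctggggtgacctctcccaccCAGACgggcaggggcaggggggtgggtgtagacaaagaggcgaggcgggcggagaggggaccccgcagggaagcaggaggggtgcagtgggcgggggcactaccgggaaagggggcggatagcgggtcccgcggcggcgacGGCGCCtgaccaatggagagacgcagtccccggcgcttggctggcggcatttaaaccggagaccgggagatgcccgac
Id2: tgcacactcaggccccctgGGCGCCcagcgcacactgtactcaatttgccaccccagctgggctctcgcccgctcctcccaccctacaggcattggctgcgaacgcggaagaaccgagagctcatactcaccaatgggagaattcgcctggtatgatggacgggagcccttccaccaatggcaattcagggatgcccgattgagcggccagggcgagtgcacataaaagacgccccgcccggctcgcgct
The Tgfb2 window held CAGAC 221 and 204 bases before the start. In the Grem1 window CAGAC began 219 and GGCGCC 78 bases before the start, and in the Id2 window GGCGCC began 231 bases before it. For Id2 the RefSeq start used lies 1048 bases from the 5′ end of the GENCODE gene, so another start is annotated there. GGCGCC was in 10 of the 36 member windows and in 9.59% of 32841 windows, and CAGAC or GTCTG was in 17 of the 36 and in 42.2% of all. The palindrome GTCTAGAC, in 0.167% of all windows, was in 0 of the 36. Among the windows of the 6 called members, 2 held GGCGCC and 3 held CAGAC or GTCTG. The windows of Tgfb1 and Fstl1, which were also called, held none of these runs. These matches are descriptions of the letters in these windows only.

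Whether higher ligand levels came with changes in target genes was followed in lists of other genes. In a list of TGF-beta response genes, 28 were not members, 23 of these were tested, and 1 rose and 2 fell, with a median log2 difference of 0.026. Of all genes tested 1.24% were called higher and 2.61% lower, and the median was -0.003. Itgb5, the integrin beta 5 subunit, whose pairing with alpha v can activate latent TGF-beta, was 181.0, 231.0, 178.7 and 168.1 in controls, and its mean rose from 190 ± 28.1 to 301 ± 36.3 (SD, n = 4 each; log2 difference 0.67, limma adjusted p = 0.00711). Tgm2, transglutaminase 2, fell from 25.9 ± 14.7 to 2.45 ± 1.64 (SD, n = 4 each; log2 difference -3.04, limma adjusted p = 0.00293). Angptl4, a lipoprotein lipase inhibitor, fell from 61.7 ± 12.8 to 18.9 ± 12.0 (SD, n = 4 each; log2 difference -1.83, limma adjusted p = 0.00900). Without replicate 3 of both groups the limma adjusted p was 0.0785 for Itgb5, 0.0151 for Tgm2 and 0.0548 for Angptl4. The other 20 tested genes of this list did not pass. With an unadjusted limma p under 0.05, 5 of the 23 were higher and 4 lower, beside 7.02% and 8.93% of all genes. With the members that are on it, among them Ltbp2, the list had 1 rise and 3 falls in 27 tested genes and a median of 0.048.

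In a list of BMP response genes, 6 were not members, all were tested, and 1 fell, with a median log2 difference of -0.069. It was Msx1, a homeobox gene, at 8.2, 5.1, 13.4 and 16.8 in controls and not above the detection limit in any p16 sample, where it was at least 4.41-fold lower (limma adjusted p = 0.0108, or 0.0657 without replicate 3 of both groups). With the 10 members that are on it, among them Id1, Id2 and Grem1, the list had 4 falls and 0 rises in 16 tested genes and a median of -0.498, where 2.61% of all genes were called lower and 1.24% higher and the median was -0.003. Of the 4 falls 3 are the members already described. With an unadjusted limma p under 0.05, 1 of the 16 was higher and 8 lower, beside 7.02% and 8.93% of all genes.

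Among 64 further ligands, receptors, antagonists, activators and intracellular regulators of the pathway, 36 were tested, 1 rose (Itgb5 again) and 1 fell, with a median log2 difference of 0.048. The shares of all genes tested were 1.24% higher and 2.61% lower, with a median of -0.003. The fall was that of Rgma, a BMP co-receptor, from 368 ± 55.1 to 254 ± 42.6 (SD, n = 4 each; log2 difference -0.53, limma adjusted p = 0.0405). Omitting 1 sample at a time kept that call in 2 of 8 cases, with the highest limma adjusted p, 0.142, without p16 replicate 1. With an unadjusted limma p under 0.05, 6 of the 36 tested genes were higher and 2 lower, beside 7.02% and 8.93% of all genes.

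Marker genes of other cell types moved in the same samples as the members. The summed value of 9 markers of the hair follicle bulge, the niche of hair follicle stem cells, was 11832.2 to 15971.2 in controls and 9056.6 to 9151.3 in p16 cells, and 7 of the 9 were called lower, among them Cd34, Lhx2 and Tcf7l1. Of the other bulge markers 1 went the other way, with a log2 difference of 0.729, and was not called. For this list and those below, the shares of all genes tested were 2.61% called lower and 1.24% higher. For the sebaceous gland list of 7 genes the sums were 1309.0 to 1485.8 and 362.2 to 609.0, and all 6 tested genes were called lower. The melanocyte list of 7 genes summed to 131.0 to 529.7 in controls and 51.7 to 142.9 in p16 cells, with 2 called lower, Dct and Tyrp1. These shifts run beside the falls of Grem1, Ltbp2, Fstl1, Id1, Id2 and Msx1, and their part in those falls was not tested. In pooled cells, fewer cells of a type and less RNA per cell cannot be told apart.

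**Figure D4:**
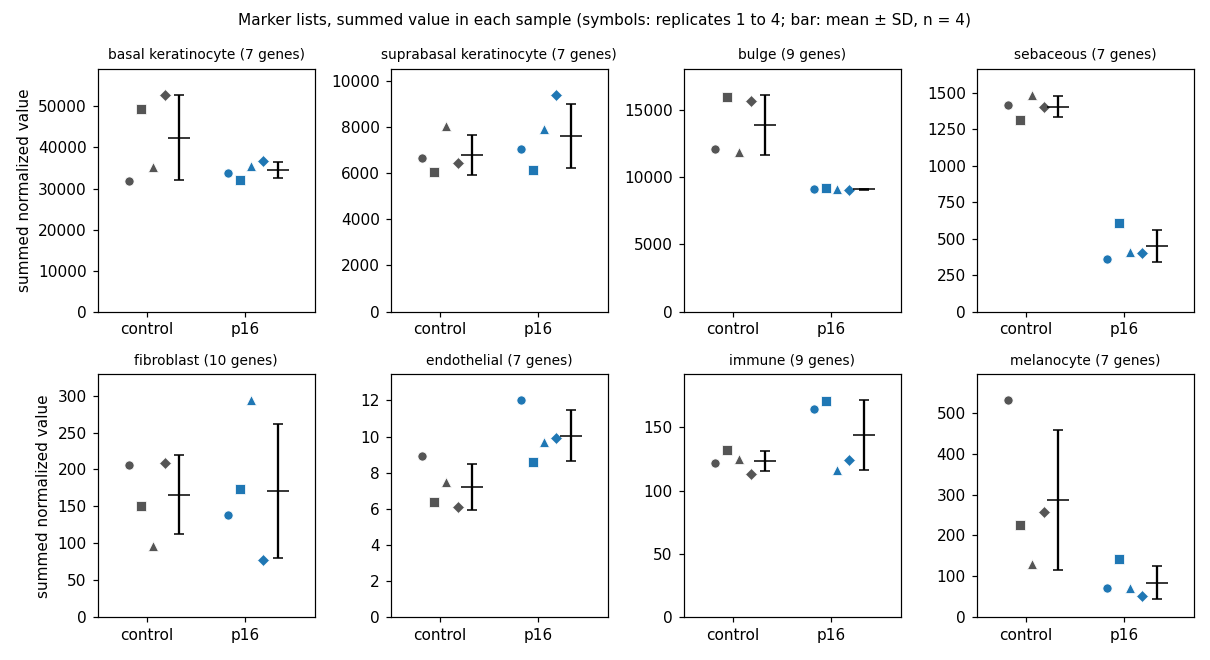
Summed normalized value of 8 marker lists in each control and p16 sample, with 1 symbol per replicate and the mean ± SD. The vertical axes start at 0. Bulge and sebaceous sums were lower in every p16 sample than in any control, whereas the fibroblast and the basal and suprabasal keratinocyte sums overlapped.

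The fibroblast list of 10 genes summed to 96.8 to 209.3 in controls and 138.4, 173.4, 293.4 and 78.2 in p16 replicates 1 to 4, with Dcn called higher and Vim and Fbln1 lower. Its defining markers Col3a1, Lum, Pdgfrb and Dpt had at most 3 reads in every sample. Dcn, at 85.6, 89.8, 203.0 and 36.2 in p16 replicates 1 to 4, was highest in replicate 3 and lowest in replicate 4, as were Tgfb2 and Inhba. The list's sum was too, but Dcn is a large part of that sum. The part of these fibroblast genes in the rise of Tgfb2 was not tested. The endothelial list of 7 genes summed to 6.1 to 8.9 and 8.6 to 12.0, with 0 called by limma (0 at an unadjusted p under 0.05) and Cdh5, Kdr, Emcn, Cldn5 and Tek at most at 3 reads. The immune list of 9 genes summed to 113.1 to 132.2 and 116.1 to 170.2, with 0 called by limma (1 at an unadjusted p under 0.05) and Ptprc, Cd3e and Lyz2 at most at 3 reads.

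The keratinocyte label was borne by the basal list of 7 genes, among them Krt5 and Krt14, which summed to 31880.9 to 52881.9 in controls and 32055.6 to 36674.6 in p16 cells, with 1 called lower, Krt15, which is also on the bulge list. The suprabasal list of 7 genes summed to 6056.2 to 8024.5 and 6124.3 to 9391.4, with Lor called higher and Ivl and Sbsn lower.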

How the data were processed

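RNA from GFP+ keratinocytes of 4 p16 and 4 control samples was profiled with CEL-Seq libraries, which count transcript 3′ ends, read on an Illumina HiSeq instrument. The 13 samples of a second profiling were not analysed here. The authors used Cutadapt for trimming, TopHat2 for alignment to GRCm38 and HTSeq for counting (versions are not given in the sources used here). The deposited signal values are these read counts divided by a DESeq2 size factor per sample and rounded to 1 decimal. Dividing by the value of 1 read gave whole reads for 100% of values (tolerance 0.05). The authors' log2 ratios, test statistics and p-values in the same table were not used.

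Values were tested as log2(normalized value + 1) with limma 3.58.1 (eBayes with trend, R 4.3.3), for genes with a mean of at least 1, without covariates. The added 1 makes log2 differences understate the change of low genes, whereas the folds given are ratios of mean normalized values without it. P-values were adjusted by Benjamini-Hochberg over 12782 genes and called under 0.05. The call across all genes was 159 higher and 334 lower. On the recovered reads, edgeR 4.0.16 (quasi-likelihood, TMM, filterByExpr) called 160 higher and 299 lower of 10700 genes, and DESeq2 1.42.0 called 190 and 356 of 12475. In a simulation with 12785 genes tested, limma recovered 94.0% of 200 changed genes (88.0% at 2-fold, 100.0% at 4-fold). Genes left unchanged made up 6.0% of what it called there. Both shares describe the simulated reads only. They were not worked out for genes with few reads, such as Smad9, Gdf10 and Bambi. Nor were they worked out for a sample as unlike its group as p16 replicate 4. A gene was at the limit of detection in a group when every sample had at most 3 reads. Folds against such a group use 3 reads per sample as a floor, which covers counting error only.

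Other settings were a pseudocount of 0.1, no filter, scaling to equal totals, a replicate block, each sample left out, replicate 3 of both groups left out, and unadjusted p. The labels give pooled mice in 3 independent experiments without saying which samples share one, so p-values measure the spread between these samples. Replicates of a group differed by more than sampling noise (chi-square per degree of freedom 3.05 to 8.96). The highest values, 6.75 to 8.96, were those of p16 replicate 4 against the other p16 samples, which gave 3.05 to 3.31 among themselves. All 55 members are named, with each sample's values for those called or not overlapping, and other genes only where called on a list of pathway, response or marker genes. Values in each sample for Inhba and Smad9 were added after seeing the data. Members and lists were chosen with earlier results of these data known.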

Additional observations from a re-analysis of the deposited data

Results flagged for a closer look

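Of 100 groups of 4 samples, 1 for each tested member and condition, 6 had a sample far from the other 3 by Dixon's test, and chance alone gives about 1 in 20. Grem1 was 103.1 in control replicate 1 and 37.6 to 48.8 in the other controls. Smad7 was 50.1 in control replicate 2 and 23.0 to 25.1 in the others. Nog was 46.8 in control replicate 3, below the 66.7 to 70.5 of the others. Smad3 was 93.2 in control replicate 4 and 81.8 to 82.3 in the others. In the p16 group, Ltbp3 was 247.4 in replicate 3 against 191.6 to 195.9, and Tgfbi was 2215.9 in replicate 4 against 1637.3 to 1665.5. Grem1 passed the test without control replicate 1 as well, and the other 5 genes did not pass in the full comparison.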

How the results depend on the processing

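Of the 7 called members, Grem1 and Id2 passed under every setting tried, and no call changed direction. The members called higher numbered 2 in the full comparison, 0 without replicate 3 of both groups, 1 to 4 with single samples left out (4 without p16 replicate 4, where Inhba and Fst were added, and 1 without p16 replicate 3) and 7 at unadjusted p. Those called lower numbered 5, or 2 to 5 with single samples left out (2 without control replicate 1) and 11 at unadjusted p. Over all genes the 159 called higher became 66 without replicate 3 of both groups, 69 to 196 with single samples left out and 897 at unadjusted p, and the 334 called lower became 157, 177 to 343 and 1141. With 1 sample left out, the fewest were called without p16 replicate 1 (69 higher) and without control replicate 1 (177 lower). Fewer samples were compared in these settings. With edgeR without a filter 3 members were higher and 6 lower, with Inhba and Smad9 added. Over all genes that setting called 224 higher and 407 lower, more than the 159 and 334 of the full comparison.

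The sign of 11 members that did not pass changed under some setting, and all 11 had a log2 difference within 0.323 of 0 over all samples. With single samples left out, log2 differences ran from -0.119 to 0.031 for Acvr1, -0.03 to 0.203 for Bmp4, -0.062 to 0.14 for Bmpr2, -0.567 to 0.01 for Eng, -0.184 to 0.073 for Inhbb, -0.098 to 0.195 for Nog, -0.121 to 0.284 for Skil, -0.089 to 0.157 for Smad2, -0.065 to 0.326 for Smad7, -0.112 to 0.365 for Tgfb3 and -0.017 to 0.161 for Tgfbi. Without replicate 3 of both groups they were -0.066 for Tgfb3, -0.056 for Bmpr2, -0.043 for Smad7 and -0.2 for Nog. The cause was not tested.

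For samples with the same replicate number, the correlations of their deviations from the group means were 0.0551, 0.0036, 0.0459 and 0.0826. Between samples with different numbers they ran from -0.0996 to 0.0586. Correlations this small cannot decide whether the numbers pair the samples. With the replicate number as a block 216 genes were called higher and 392 lower, and 3 members higher and 5 lower, with Fst added (limma adjusted p = 0.0353). Fstl1 was not tested by edgeR with its filter on low counts. Genes with few reads, such as Smad9, Gdf10 and Bambi, have wide intervals at this depth.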
